A study of Mus musculus with 2 samples.

Results

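Ribosome footprints on the potassium channel genes and the HCN channel genes were examined in brain polysomes of newborn mice. The members were the mouse genes whose symbols begin with Kcn, together with the HCN genes, that had at least 1 transcript annotated as protein coding. Kcnq1ot1, a non-coding RNA, was left out by the rule. This gave 98 genes among the 45578 genes of the table, with 317 annotated transcripts, and counts were summed over the transcripts of each gene. Both brains came from postnatal day 5 control mice of genotype Smn+/-; SMN2tg/0 on the FVB strain (n = 2 biological replicates). Each animal thus lacked 1 functional copy of Smn and carried a human SMN2 transgene, and no animal without these alleles was analysed here. Polysomes were isolated from whole frozen brain on a sucrose gradient and digested with RNase I, so a count reflects the ribosomes that sat on a gene's mRNA in all brain regions and cell types together. In such bulk samples fewer cells of a type and fewer ribosomes on a gene per cell cannot be told apart.

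Potassium channels let potassium leave the cell down its gradient, which sets the resting potential, ends action potentials and limits repetitive firing. Voltage-gated pore subunits of the Kcna, Kcnb, Kcnc, Kcnd, Kcnh and Kcnq families assemble as tetramers, inward rectifiers of the Kcnj family hold the membrane near rest, and Kcnk channels carry leak current. HCN channels belong to the same structural superfamily but pass sodium as well as potassium and open on hyperpolarization, which gives pacemaker current. Auxiliary subunits such as Kcnab, Kcnip, Kcne and Kcnmb proteins change the gating or the surface delivery of the pore-forming subunits.

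The libraries held 1866831 footprints in replicate 1 and 5261878 in replicate 2. The channel genes took 4398 of them in replicate 1, or 0.236% (Clopper-Pearson 95% interval 0.229 to 0.243), and 12635 in replicate 2, or 0.240% (0.236 to 0.244). These intervals cover counting error only and hold no variation between animals. They are too narrow if PCR copies were counted, since such copies are not independent molecules. At least 10 footprints in each library were found for 72 of the 98 genes (73.5%), beside 55.2% of the 21874 genes with an annotated protein coding sequence. The mean count was at least 10 for 75 genes, 16 had footprints but a lower mean, and 7 had none in either library. Neuronal markers were abundant, at a summed level of 4933 CPM (counts scaled to the library total) in replicate 1 and 3880 CPM in replicate 2 over 6 genes. The 6 heart and skeletal muscle markers together stood at 86.2 and 67.1 CPM, most of it from the actin gene Acta1.

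Levels of different genes were compared as footprint density, the CPM value divided by the length in kilobases of the gene's longest annotated coding sequence. Median density of the 98 genes was 9.22 CPM per kilobase in replicate 1 and 9.36 in replicate 2, against 5.71 and 6.73 over all coding genes. The coding genes include many with few or no footprints. Over coding genes that averaged 10 or more footprints, the median of the mean density was 23.5. Most of the 75 channel genes with such a count lay below that value. None reached the top 10% of coding genes by mean density. Mean density was above 50 for 9 genes, between 20 and 50 for 18, between 5 and 20 for 38, and at or below 5 for 33. The 10 genes with the highest mean density included Kcne1l, Kcna6, Kcnab2, Kcnip1, Kcnj10, Kcnip3, Kcnd2, Kcnk9 and Kcnk1. The 10 together carried 40.3% ± 0.950 of the summed density of the 98 genes (SD, n = 2).

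**Figure D1:**
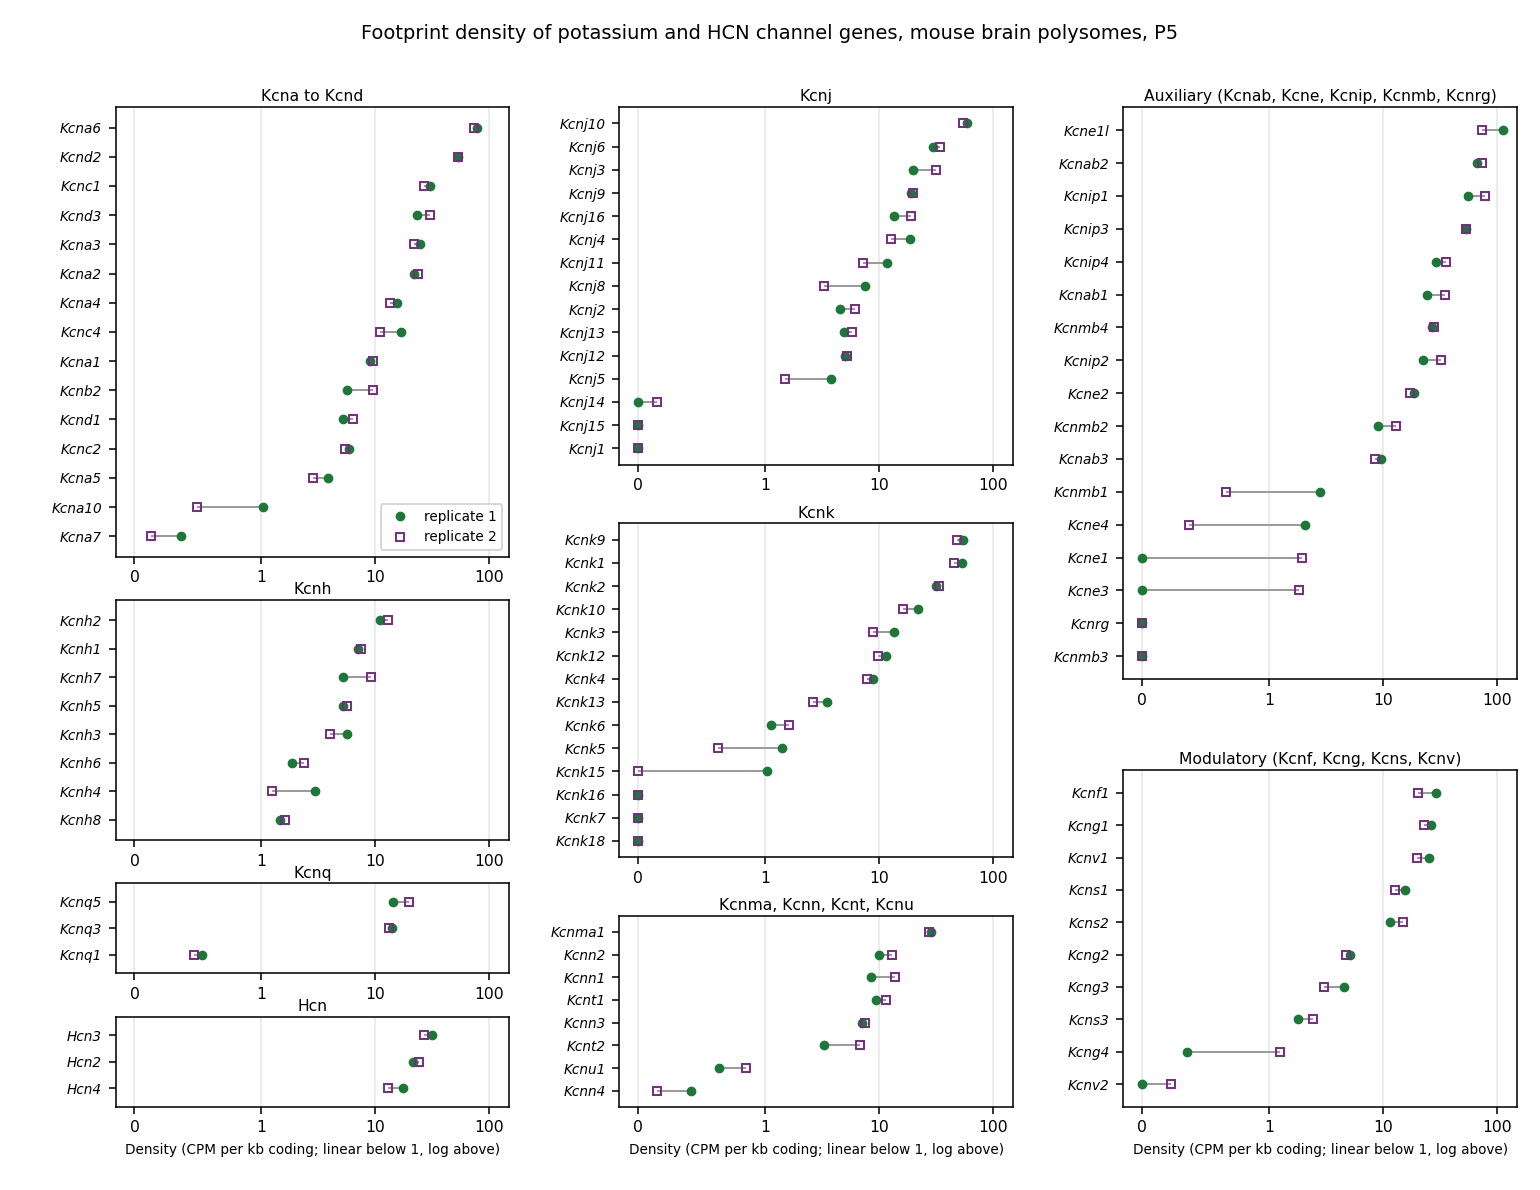
Footprint density of channel genes by class, in CPM per kilobase of the longest coding sequence, on an axis that is linear below 1 and logarithmic above; filled circles are replicate 1, open squares replicate 2, and the grey line joins them. Kcne1l reached 113 in replicate 1 and 74.8 in replicate 2, and the 7 genes without footprints lie at 0 in both.

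By class, the 17 auxiliary genes held 28.8% ± 1.00 of the summed density, and the 17 pore genes of the Kcna, Kcnb, Kcnc and Kcnd families 20.7% ± 0.301 (SD, n = 2). Inward rectifiers held 12.9% ± 0.116 and Kcnk leak channels 12.2% ± 1.30. The 10 modulatory voltage-gated subunits held 7.19% ± 0.796, the Kcnq family 5.55% ± 0.713 and the HCN genes 5.13% ± 0.215. The genes of the Slo family and of the Kcnn channels, most of them gated by calcium or sodium, held 4.82% ± 0.608. The ether-a-go-go genes (Kcnh) held 2.74% ± 0.175. Shares are sums over classes of unequal size and do not rank the genes within them. Median density was highest for the 4 HCN genes at 19.1, beside 18.0 for auxiliary and 14.1 for Kcna to Kcnd genes. It was 13.6 for the 5 Kcnq, 9.12 for the modulatory and 8.90 for the 8 Slo and Kcnn genes. For the 14 Kcnk, 15 Kcnj and 8 Kcnh genes it was 5.73, 5.42 and 5.14. The shares of the auxiliary and Kcna to Kcnd classes lay apart in both libraries from each other and from every class below them, while those of the Kcnj and Kcnk genes overlapped. Auxiliary coding sequences are short, and with the length of the whole highest-count transcript as divisor the auxiliary share was 21.6%, the Kcna to Kcnd share 17.6% and the Kcnk share 17.4%.

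**Figure D2:**
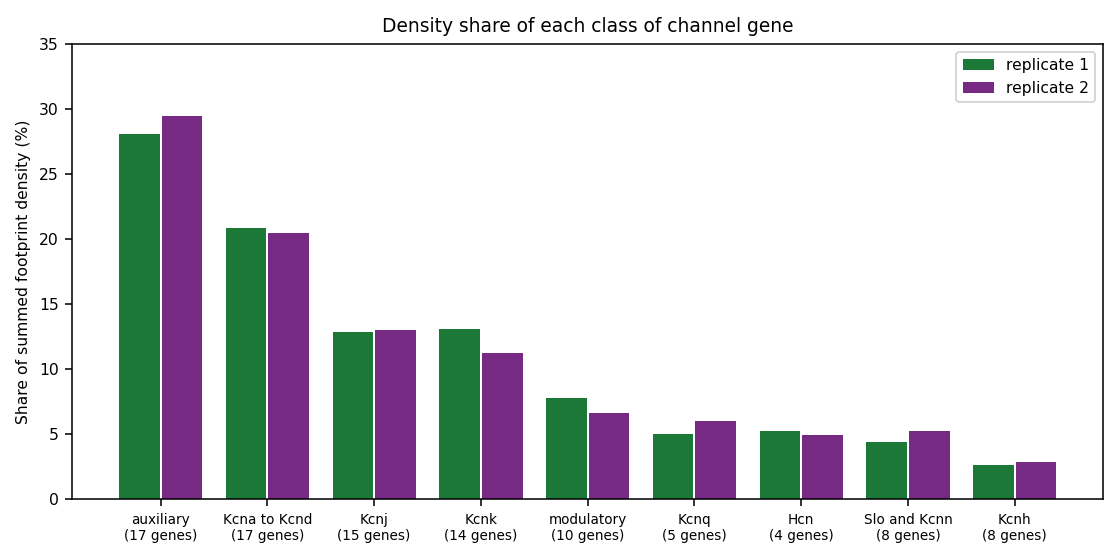
Share of the summed footprint density of the 98 genes, in percent, held by each class in replicate 1 (green bars) and replicate 2 (purple bars), with the number of genes under each class. Auxiliary genes held 28.1% and 29.5%, and ether-a-go-go genes 2.62% and 2.87%.

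Among the Shaker-related Kcna genes, which carry low-threshold delayed rectifier and A-type currents of axons, Kcna6 stood first. It had 231 footprints in replicate 1 and 615 in replicate 2, a density of 77.8 (95% interval 68.1 to 88.5) and 73.5 (67.8 to 79.6). Its share of the family's density was 50.4% in replicate 1 and 50.3% in replicate 2, and its density was 3.16 and 3.32 times that of Kcna3, the next gene. The size of this lead assumes that a fragment shared by several Kcna6 transcripts was counted once, while Kcna3 has 1 transcript. Kcna3 had densities of 24.6 and 22.2 and Kcna2, a subunit of axonal channels beside nodes of Ranvier, had 22.1 and 23.9, so these ranges overlapped. Kcna4, an A-type subunit, followed at 15.5 and 13.5. Kcna1, the partner of Kcna2 in the adult axon and the gene of episodic ataxia, had 25 and 75 footprints and densities of 9.00 and 9.58. Kcna5 had densities of 3.85 and 2.84, Kcna10 had 3 and 4 footprints, and Kcna7, known from skeletal muscle and heart, had 1 footprint in each library. The family thus ran from a single leading gene down to counts at which no level can be read.

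The Shab gene Kcnb2, a somatic delayed rectifier, had densities of 5.70 and 9.56. Among the Shaw genes, which allow fast spiking, Kcnc1 had 30.5 and 27.0 and Kcnc4 was at 17.0 and 11.1. Kcnc2, the gene enriched in parvalbumin interneurons, was lowest in its group at 5.86 and 5.44. Kcnc1 density exceeded that of Kcnc2 by 5.20 and 4.96 times.

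The Shal genes form the somatodendritic A-type current. Kcnd2 had 187 and 531 footprints and densities of 52.9 and 53.3, which differed little between the libraries. Kcnd3 stood at 23.4 and 30.3 and Kcnd1 at 5.20 and 6.41. The ratio of Kcnd2 to Kcnd3 was 2.26 in replicate 1 and 1.76 in replicate 2. Both gaps in this family exceeded the replicate ranges and the counting intervals in each library.

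The modulatory genes encode subunits that form no channel alone and alter Kcnb channels. Kcnf1 had 83 and 164 footprints, with densities of 29.3 and 20.5. Kcng1 had densities of 26.4 and 22.9 and held 72.0% ± 0.494 of the Kcng density (SD, n = 2), with Kcng4 lowest in its group at 1 and 10 footprints. In the Kcns group Kcns1 had 15.8 and 12.7 and Kcns2 had 11.6 and 15.0, which overlapped, and Kcns3 was lowest at 1.81 and 2.45. Kcnv1 stood at 25.2 and 19.7. Kcnv2, a gene of photoreceptors, had 0 and 2 footprints. Of the 10 modulatory genes, 7 had at least 10 footprints in both libraries.

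Kcnh genes had the lowest share of any class although 7 of 8 had at least 10 footprints in both libraries. Kcnh2, the ERG channel known from the long QT syndrome, was highest with densities of 11.1 and 12.9. Kcnh1, Kcnh7, Kcnh5 and Kcnh3 followed with mean densities from 4.85 to 7.26. Kcnh1 had 7.03 and 7.49 and Kcnh7 had 5.23 and 9.16, and these ranges overlapped. Kcnh8 was lowest at 1.46 and 1.61, below Kcnh4 at 2.98 and 1.24 by mean only.

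The Kcnq genes carry the M-current of neurons, which restrains repetitive firing, and 4 of the 5 had at least 10 footprints in both libraries. Kcnq5 had 76 and 300 footprints and densities of 14.2 and 19.9, and Kcnq3 had 69 and 181 footprints and densities of 14.1 and 13.1. The intervals of Kcnq5 and Kcnq3 overlapped in replicate 1 and lay apart in replicate 2. Kcnq1, the cardiac and epithelial member, was lowest in its group with 2 and 5 footprints and densities of 0.534 and 0.473.

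The calcium-activated BK channel gene Kcnma1 had 198 and 538 footprints and densities of 28.5 and 27.5. Its neuronal auxiliary subunit Kcnmb4 had densities of 27.1 and 28.2, a ratio to Kcnma1 of 0.950 and 1.03. Small-conductance genes of the Kcnn family, which give the afterhyperpolarization, were lower. Kcnn2 had 9.99 and 13.0, Kcnn1 had 8.60 and 13.7 and Kcnn3 had 7.06 and 7.61, while Kcnn4, a gene of red cells and immune cells, had 1 footprint in each library. Kcnn2 and Kcnn1 overlapped, and with coding transcripts alone Kcnn1 came first. Kcnt1, a sodium-activated channel, stood at 9.37 and 11.6, above its relative Kcnt2 at 3.30 and 6.75. Kcnu1, the sperm channel, had 4 and 15 footprints.

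Inward rectifiers were led by Kcnj10 (Kir4.1), the glial channel that clears extracellular potassium. It had 127 and 325 footprints and densities of 59.7 and 54.2, or 30.0% and 26.9% of the Kcnj density. With the length of the highest-count transcript as divisor, Kcnj6 came first in its place. Kcnj16, which joins Kcnj10 in heteromeric channels, had 13.6 and 19.0. Astrocyte markers had a summed level of 1966 CPM in replicate 1 and 1917 CPM in replicate 2 over 6 genes. The G-protein-gated subunits came next. Kcnj6 had densities of 29.8 and 34.2, Kcnj3 of 19.9 and 31.7 and Kcnj9 of 19.0 and 19.9, with the ranges of Kcnj6 and Kcnj3 overlapping. Kcnj5, the fourth subunit of this set and prominent in the heart, had 9 and 10 footprints. Kcnj4 had 18.8 and 12.6 and Kcnj11, the neuronal pore of ATP-sensitive channels, had 11.9 and 7.29. Kcnj13, a gene of choroid plexus epithelium, had 10 and 33 footprints, beside a choroid plexus marker sum of 658 and 366 CPM over 6 genes. Kcnj14 had 0 and 1 footprint, and the lowest were Kcnj1 and Kcnj15, transport channels of kidney and other epithelia, with none.

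Among the leak channels Kcnk9 (TASK-3) and Kcnk1 (TWIK-1) were close together. Kcnk9 had 123 and 305 footprints and densities of 54.5 and 47.9, and Kcnk1 had 102 and 243 footprints and densities of 54.0 and 45.7. Kcnk2 (TREK-1) stood at 31.4 and 33.4 and its relative Kcnk10 at 22.0 and 16.2. Kcnk3 (TASK-1) had 13.5 and 8.81, so Kcnk9 density was 4.04 and 5.44 times higher. Kcnk12 had 11.6 and 9.85, Kcnk4 (TRAAK) had 8.95 and 7.78 and Kcnk13 had 3.52 and 2.65. Kcnk5, Kcnk6 and Kcnk15 had at most 8 footprints in either library. No footprint was found on Kcnk7, Kcnk16 or Kcnk18. With 3 counts per library as the limit, a count of 0 in replicate 1 allowed a level of up to 1.61 CPM, and in replicate 2 of up to 0.570 CPM. For these 3 genes that is a density of at most 1.83 and 0.649.

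All 4 HCN genes had at least 10 footprints in both libraries. Hcn3 had 139 and 328 footprints and densities of 31.8 and 26.6, and Hcn2 had 105 and 331 footprints and densities of 21.7 and 24.3. Hcn4, the main sinoatrial and thalamic isoform, had 118 and 246 footprints and densities of 17.5 and 13.0. Hcn3 held 36.7% ± 3.06 of the HCN density and Hcn4 19.1% ± 3.25 (SD, n = 2). The first place of Hcn3 rests on footprints assigned to transcripts that are not protein coding. With coding transcripts alone Hcn3 had 23.3 and 18.2, overlapping Hcn2, which has coding transcripts only and kept 21.7 and 24.3. Division by the length of the highest-count transcript also put Hcn2 first.

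**Figure D3:**
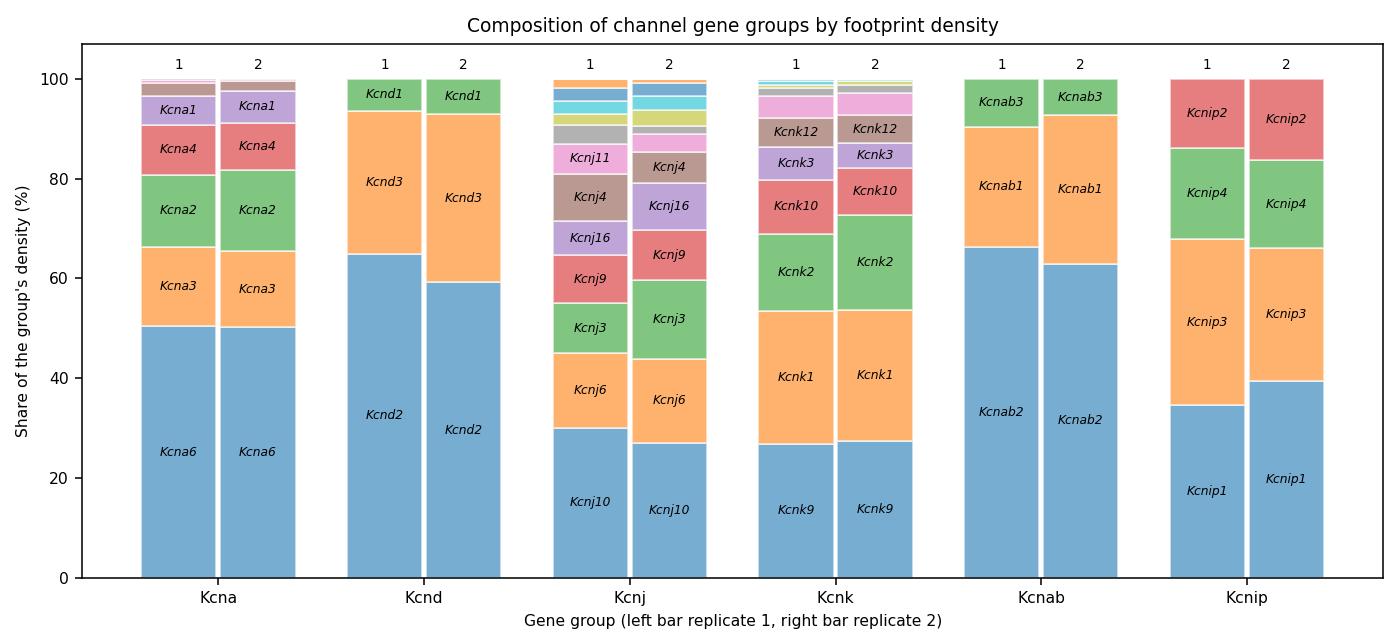
Share of the footprint density of 6 gene groups held by each member, in percent, with replicate 1 as the left bar and replicate 2 as the right bar of each pair; segments under 4.5% carry no name. Kcna6 held 50.4% and 50.3% of the Kcna group, Kcnd2 64.9% and 59.2% of the Kcnd group, and Kcnj10 30.0% and 26.9% of the Kcnj group.

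Auxiliary genes included 4 of the 6 highest densities. Kcne1l (Kcne5), a single-pass membrane protein that suppresses Kcnq1 current, had 91 and 170 footprints and densities of 113 (95% interval 90.9 to 139) and 74.8 (64.0 to 86.9), which placed it at percentile 89.9 of all coding genes. Its coding sequence has 432 nucleotides, so this density rests on few footprints. Kcne2, a gene also of choroid plexus, had 13 and 34 footprints and densities of 18.7 and 17.4. Kcne1, Kcne3 and Kcne4 had at most 4 footprints in either library. Kcnab2, the cytoplasmic beta subunit that carries Kcna channels to the axon, had 144 and 446 footprints and densities of 67.1 and 73.8. Kcnab1 stood at 24.4 and 35.0 and Kcnab3 at 9.70 and 8.60.

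The Kcnip genes encode calcium-binding partners of Kcnd channels. Kcnip1 had 71 and 284 footprints and densities of 55.6 and 78.9, or 1.05 and 1.48 times the density of Kcnd2. With coding transcripts alone Kcnip1 had 45.4 and 58.9, below Kcnd2 at 52.9 in replicate 1 and above it at 53.3 in replicate 2. Kcnip3, also known as calsenilin, had 85 and 240 footprints and densities of 53.3 and 53.3. Kcnip4 had 29.2 and 35.6 and Kcnip2, the cardiac partner, had 22.4 and 32.5, and these ranges overlapped. In the Kcnmb group Kcnmb4 was followed by Kcnmb2 at 9.08 and 13.2, Kcnmb1, the smooth muscle form, had 3 and 2 footprints, and Kcnmb3 had none. Kcnrg, a regulator of channel assembly, had none either.

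Neighbours in the order of density within a family could be told apart in part only. Of 76 neighbouring pairs, the ranges of the replicates did not overlap for 47, and in 20 the counting intervals lay apart in both libraries as well. The 20 included Kcna6 over Kcna3, Kcnd2 over Kcnd3, Kcnj10 over Kcnj6, Kcnab2 over Kcnab1 and Kcne1l over Kcne2.

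By annotation, the channel genes had longer untranslated regions than coding genes at large, a property that the choice of members did not use. The comparison was not restricted to genes with footprints, and for genes without any the transcript taken is arbitrary. For the highest-count coding transcript of each gene, the median coding length was 1473 nucleotides against 1140 over all coding genes. The median 3′ untranslated length was 1225.5 against 584 nucleotides, and the median 5′ untranslated length 261.5 against 131. Only 1 transcript was annotated for 39 of the genes.

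Footprints assigned to annotated coding transcripts made up 89.0% of the channel footprints in replicate 1 and 88.0% in replicate 2, against 81.1% and 79.5% over all genes with a coding transcript. The rest, 11.5% ± 0.680 (SD, n = 2), lay on processed transcripts, retained introns and targets of nonsense-mediated decay of 32 genes. These transcripts share exons with the coding ones, and the way a shared fragment was assigned is not given in the sources used here. Among genes averaging 100 or more footprints, Kcna6 was the 1 gene whose highest transcript was not protein coding. Its transcript Kcna6-001, annotated as a target of nonsense-mediated decay, had 88 and 222 footprints, beside 87 and 219 on Kcna6-201 and 56 and 174 on Kcna6-003, both protein coding. All 3 have the same coding length of 1590 nucleotides. In Kcna2, transcripts with 3′ untranslated regions of 9401 and 367 nucleotides and the same coding length had similar counts, 63 on Kcna2-001 and 57 on Kcna2-002 in replicate 2. Hcn2-001 and Hcn2-201, also of equal coding length, had 48 and 57 footprints in replicate 1 and 173 and 158 in replicate 2. Counts of such transcripts therefore give no separate isoform levels. In 11 of the 47 channel genes with several coding transcripts, all coding transcripts had the same coding length.

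Kcnab1 had the largest part outside coding transcripts among genes averaging 100 or more footprints, at 61.8% in replicate 1 and 70.7% in replicate 2. Its processed transcripts Kcnab1-004, Kcnab1-003 and Kcnab1-002 had 56, 40 and 38 footprints in replicate 2, and its 1 coding transcript had 65. With coding transcripts alone its density was 9.33 and 10.2, and its place among the 98 genes moved from 14 to 46. Kcnn2 had 38.3% and 41.6% outside coding transcripts, chiefly on retained introns. Kcna6 moved from place 2 to place 8 with coding transcripts alone, at densities of 48.2 and 47.0, and remained above Kcna3.

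**Figure D4:**
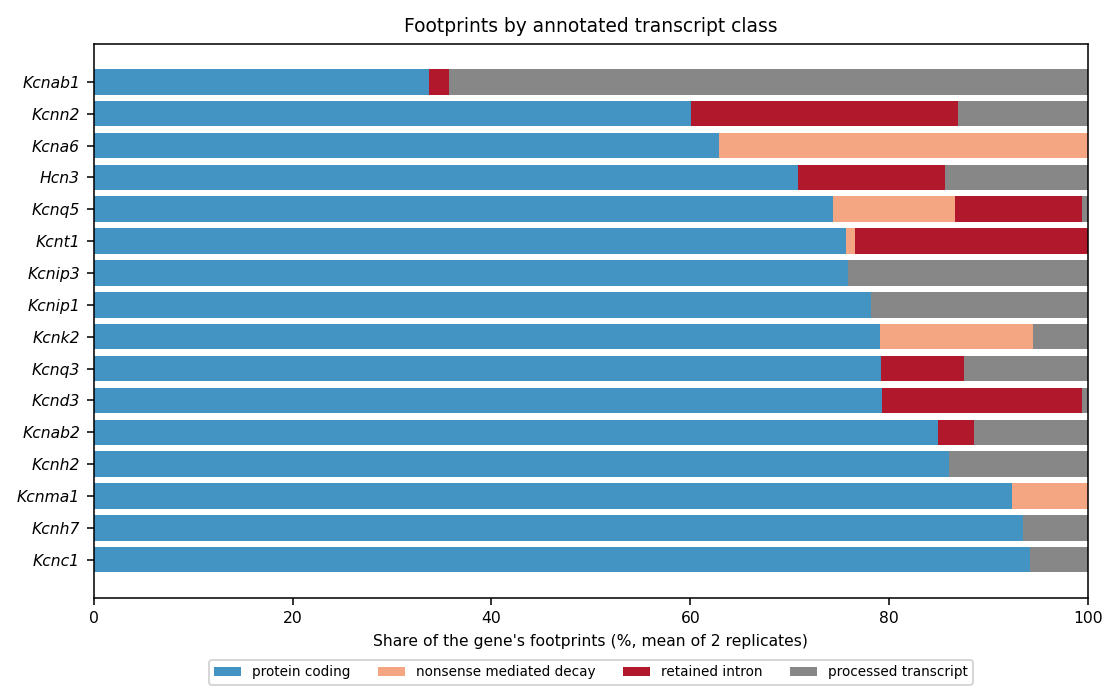
Share of each gene's footprints by annotated class of transcript, in percent and as the mean of 2 replicates, for channel genes with a transcript that is not protein coding and an average of 100 or more footprints. Kcnab1 had 61.8% and 70.7% of its footprints outside coding transcripts in the 2 replicates, and Kcna6 38.1% and 36.1%, all on a target of nonsense-mediated decay.

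The replicate libraries were then compared by an exact binomial test for each gene, two-sided, at the ratio of library sizes scaled by TMM (trimmed mean of M values). Its p-values were adjusted by Benjamini-Hochberg over all 16427 genes that averaged 10 or more footprints. The test sets 2 brains of 1 group side by side and covers counting noise alone. Of the 75 channel genes tested, 7 (9.33%) passed an adjusted p of 0.05, against a background of 17.4% of all genes tested. Of the 7, 1 was higher in replicate 2 (background 5.95%) and 6 were lower (background 11.5%). An unadjusted p under 0.05 was found for 20 of the 75, or 26.7%, against 27.7% of all genes. The median log2 ratio of replicate 2 over replicate 1 was -0.084 for the channel genes and 0.0056 for all genes, and the median size of the log2 ratio was 0.29 in both.

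Kcnt2, whose sodium-activated channel slows firing, was the gene higher in replicate 2. It had 21 and 121 footprints, and its log2 ratio was 0.88 (exact binomial test, Benjamini-Hochberg adjusted p 0.0377). Its densities of 3.30 and 6.75 lay apart beyond their counting intervals.

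The 6 lower genes came from 6 different classes. Kcne1l had 91 and 170 footprints and a log2 ratio of -0.71 (adjusted p 0.00208, exact binomial test). Hcn4 had 118 and 246 footprints and a log2 ratio of -0.56 (exact binomial, adjusted p 0.00719), and Hcn2 and Hcn3 were not called, at log2 ratios of 0.035 and -0.38. Kcnf1 had 83 and 164 footprints and a log2 ratio of -0.63 (exact binomial, adjusted p 0.0118). Kcnc4 had 60 and 110 footprints and a log2 ratio of -0.73 (exact binomial, adjusted p 0.0138). Kcnj8 and Kcnh4 had the lowest counts of the 6. Kcnj8, the ATP-sensitive channel pore of pericytes and vascular smooth muscle, had 18 and 22 footprints and a log2 ratio of -1.23 (exact binomial, adjusted p 0.0322). Kcnh4, an ether-a-go-go gene of the forebrain, had 17 and 20 footprints and a log2 ratio of -1.27 (exact binomial, adjusted p 0.0380).

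Scaling by library totals in place of TMM raised the log2 ratios by about 0.13 and turned the balance of calls, among channel genes and among all genes. It called 10 of the 75 channel genes (13.3%) against a background of 19% of all genes, and 5 of the 10 were among the 7. Of the 10, 6 were higher, beside 11.5% of all genes, and 4 were lower, beside 7.47%. Kcnj3, Kcnip1, Kcnq5 and Kcnh7 were among those then called higher, while Kcnj8 (exact binomial, adjusted p 0.0549) and Kcnh4 (exact binomial, adjusted p 0.0647) were not called. Over all genes with at least 1 count, 4 of 91 channel genes were called, all lower, against a background of 9.93%. With a common dispersion added, the exact test of edgeR called none of the 75, with 2 at an unadjusted p under 0.05, and 11 of all 16427 genes (0.067%). That dispersion was estimated from the same 2 libraries, taken as replicates of 1 group. Their differences thus enter the dispersion, so a gene passes only where its ratio is large beside the spread of all genes tested.

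Marker genes of other cells and regions differed between the same libraries. Of all genes tested, 11.5% were called lower in replicate 2 and 5.95% higher. At high counts the test calls small ratios, such as that of the neuron marker Syt1 at -0.20. Of 6 neuron markers 4 were called lower in replicate 2 and none higher, all 6 had log2 ratios below 0, and the median was -0.38, with Tubb3 at -0.99 and Stmn2 at -0.81. Astrocyte markers had log2 ratios below 0 in 5 of 6, with 2 called lower, Gja1 and Aldoc. Oligodendrocyte markers had 2 of 6 called higher and 2 called lower. Microglia markers had 1 of 5 called in each direction, and endothelial markers 1 of 5 called lower. Of 5 forebrain markers 4 were called lower in replicate 2 and none higher, with a summed level of 962 CPM in replicate 1 and 699.8 CPM in replicate 2. Of 5 Purkinje cell markers 1 was called, Pcp2, which was higher in replicate 2, and the summed level was 196 and 273 CPM. Cerebellar granule cell markers, 1 of 5 called higher, stood at 432 and 503 CPM. Pericyte and smooth muscle markers stood at 337 and 327 CPM, with 2 of 5 tested genes called lower, Cspg4 and Acta2. Pdgfrb, Rgs5 and Vtn were not called, at log2 ratios of -0.065, -0.21 and 0.024. Abcc9, the partner subunit of Kcnj8, had a log2 ratio of 0.27 and was not called either. The part of these marker differences in the channel gene results was not tested. The choroid plexus sum was 658 and 366 CPM, most of it from Ttr, which was called lower. The choroid plexus genes Kcnj13 and Kcne2 had log2 ratios of 0.09 and -0.22 and did not pass the exact binomial test.

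Of the 75 channel genes tested, 47 had log2 ratios below 0 with TMM and 35 with library totals. The median over all genes tested was 0.0056 with TMM and 0.13 with library totals, so 0 is not the centre under the latter. Genes of a class are not replicates, and no class was tested as a whole. By class, all 8 Kcnk genes tested had log2 ratios below 0 and none was called, with a median of -0.36. With library totals 7 of the 8 were below 0, Kcnk2 being the exception. Of the 15 tested Kcna to Kcnd genes 12 were below 0 with TMM and 8 with library totals. Modulatory genes were below 0 in 6 of 8 under both scalings. The 6 tested Slo and Kcnn genes had a median of 0.21, with 4 above 0 under TMM and 5 under library totals.

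**Figure D5:**
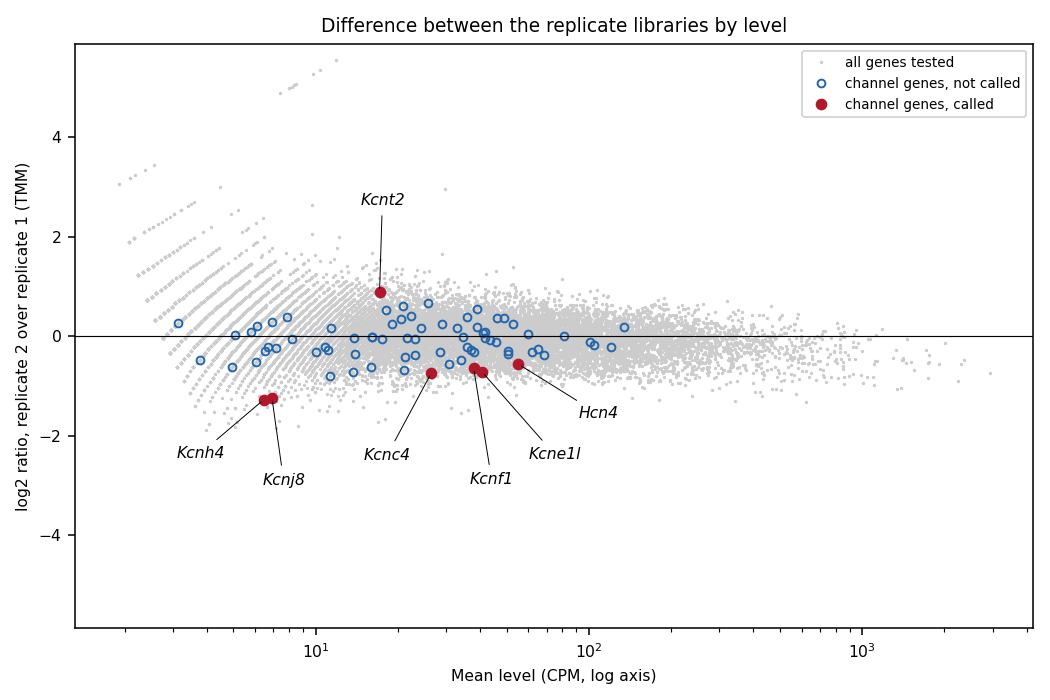
Log2 ratio of replicate 2 over replicate 1 with TMM scaling against the mean level in CPM on a log axis, for the 16427 genes tested (grey dots) and the 75 channel genes among them (open circles, or filled and named where called by the exact binomial test). Of the 7 called genes, Kcnt2 lies above 0 and the other 6 lie between -0.56 and -1.27.

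Partner proteins that anchor or assist these channels were taken from a list of 19 genes. Of these, 16 were abundant enough to test and 6 were called, beside the background of 17.4%. That background holds many genes of low count, while the 6 called and most of the 16 averaged more than 100 footprints. With the filter set at a mean of 100 footprints, 2742 of 8060 genes were called, so the 6 calls are no sign of an excess among partners. In replicate 2, 5 were higher (background 5.95%) and 1 was lower (background 11.5%). Dpp6 and Dpp10 bind Kcnd channels. Dpp6 had 585 and 1853 footprints and densities of 121 and 136, and Dpp10 had 129 and 544 footprints, densities of 28.8 and 43.0 and a log2 ratio of 0.45 that was called higher. Pex5l (TRIP8b), the trafficking partner of HCN channels, had 88 and 361 footprints and densities of 24.1 and 35.1, and was not called. Adam22 and Lgi1, which organise Kcna channels at axons and synapses, were called higher at log2 ratios of 0.42 and 0.48, as were Cntn2 at 0.28 and Ank3, the anchor of Kcnq3 at the axon initial segment, at 0.21. Vapa, which tethers Kcnb channels to endoplasmic reticulum, was the gene called lower, with 441 and 892 footprints and a log2 ratio of -0.60. The sulfonylurea receptors Abcc8 and Abcc9, partners of Kcnj11 and Kcnj8, had 19 and 61, and 36 and 134 footprints. Of the BK gamma subunits, Lrrc55 had 32 and 101 footprints, Lrrc38 had 0 and 8, Lrrc52 had 0 and 1 and Lrrc26 had none.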

How the data were processed

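The authors deposited whole-number counts of ribosome-protected fragments per transcript, with annotated lengths, for 2 replicates of 1 group. Per the submitters' processing notes, Trimmomatic 0.36, Bowtie2 2.2.6, SAMtools and the build GRCm38.p4 were used; the counting rule, duplicates and strand are not given in the sources used here. Transcript counts were summed per gene, so counts of near-identical or overlapping genes are uncertain. The sums assume that a fragment shared between transcripts of a gene was counted once. Levels are CPM of the library total, and density divides CPM by the longest coding sequence. Log2 ratios carry a prior of 0.5 CPM. The exact binomial test used TMM factors from edgeR 4.0.16 (0.957 and 1.04) on genes averaging 10 or more footprints. Its code was tried on simulated counts whose noise was counting noise alone. That trial cannot show the rate of false calls where animals vary. With 1 group there is no contrast for edgeR's quasi-likelihood test. DESeq2 1.42.0 gave alternative size factors, and scipy 1.17.1 the tests. P-values of the exact binomial test cover counting noise alone and take in no variation between animals. All 98 symbols were found in a RefSeq table of another patch of the assembly, so no coordinates are given, and no sequences were used here. The genes named were all members called, the 10 highest densities, the HCN genes, the highest and lowest of each family, members without footprints and members whose highest transcript was not protein coding; other members are named after their values were seen. Some members that this rule takes in are not reported here by name. The members and lists were chosen with earlier results of these data known.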

Additional observations from a re-analysis of the deposited data

How the results depend on the processing

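No paired analysis was possible because both samples belong to 1 group. Against 7 of 75 channel genes called, 4 of 91 (4.40%) were called over all genes with at least 1 count, where the background was 9.93%, and 0 of 75 by the exact test of edgeR under a common dispersion (2 at an unadjusted p under 0.05). Because that dispersion came from the same libraries that were compared, the lack of calls cannot decide whether genes differed. The median log2 ratio of the channel genes was 0.041 with library totals and that of all genes 0.13. Kcnj8, Kcnh4 and Kcnt2 were not called with at least 1 count or with the highest transcript per gene, and Kcnt2 not with coding transcripts alone. Kcne1l, Hcn4 and Kcnf1 were called under every scaling, filter and transcript choice tried with the exact binomial test. At a mean count of at least 100, 7 of 34 channel genes were called, 2 higher and 5 lower, beside 2742 of 8060 genes. Only 3 of them were among the main 7, whose other genes averaged fewer footprints and were not tested there. Coding transcripts alone gave 8 of 75, beside 2368 of 13028 genes, and the highest transcript 5 of 71, beside 1444 of 15353. Coding transcripts alone, an alternative added after seeing the data for the order within families, kept the highest gene in 15 of 18 families. At least 50 footprints in both libraries were found for 34 genes; each replicate alone gave 72 to 78 genes with at least 10. The share of all footprints was 0.141% with the highest transcript per gene, 0.211% with coding transcripts alone and 0.183% as a share of density. With the length of the highest-count transcript, class shares were 17.6% for Kcna to Kcnd, 4.19% for Kcnh, 4.29% for Kcnq, 7.89% for Slo and Kcnn genes, 11.6% for Kcnj, 17.4% for Kcnk, 8.94% for HCN and 21.6% for auxiliary genes, and 36.6% for the 10 highest genes. With coding transcripts alone they were 8.08% for modulatory, 4.68% for Kcnq, 14.2% for Kcnj and 26.8% for auxiliary genes.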
